A study of Danio rerio with 6 samples.

Results

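In sorted myl7 reporter cells of zebrafish embryos, 17 of 27456 genes (0.0619%; 0.116% of the 14667 with at least 1 CPM in every morphant library) were at least 1.9 times higher in the lowest Gata4 morphant library than in the highest wildtype library. The genes were chosen by that rule on CPM, the count of a gene scaled by the total count of its library. The lowest morphant CPM had to be at least 1, and wildtype values under 0.1 CPM were taken as 0.1. The rule also drops 2 gene names, slc2a1 and her4.1, but no gene of either name had reached the ratio (SLC2A1 1.74 and 0.125 for its 2 identifiers, her4.1 1.29). The morphant to wildtype contrast therefore chose the genes, and their difference in it is described here without a test. Of the 17 genes, 14 have a symbol and 3 have an Ensembl identifier only. A doubling in every morphant library held for 13 of them, since 4 had ratios between 1.9 and 2. Read levels were low throughout, with at most 3.14 CPM in any wildtype library and at most 20.9 CPM in any morphant library. No gene of the set is part of the 27 marker and pathway lists or the 12 name groups considered here.

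The named genes have varied known roles. Synaptotagmins sit in vesicle membranes and take part in calcium-regulated release, liprin-alpha proteins are scaffolds of the presynaptic active zone, and LINGO proteins are leucine-rich repeat membrane proteins of the nervous system. Microtubule-associated proteins bind and organise microtubules, and centriolar satellites are granules around the centrosome that deliver proteins to it. GATA4 itself is a zinc finger transcription factor of heart and endoderm development, and myl7, whose promoter drives the reporter, encodes a cardiac myosin light chain.

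The data are RNA sequencing of 6 libraries of cells sorted at 24 hours post fertilization from tg(myl7::gfp) embryos, 3 from the group labelled Wildtype and 3 from Gata4 morphants. Each morphant embryo received 2 nl of a 0.7 mM morpholino, an antisense oligomer, before the 4-cell stage. About 200 embryos were pooled per batch, and the labels do not say that the replicates came from separate clutches or whether the Wildtype embryos were injected. The labels number no replicates, so numbers were given here in the order of the deposited samples, and equal numbers do not mark pairs. An mRNA-Seq kit was used for wildtype 1 and 2 and for morphant 1, and a TruSeq kit for wildtype 3 and for morphants 2 and 3. The morpholino is shown because it defines the morphant group, with its reverse complement, the strand it would pair with.
Gata4 morpholino: tccacaggtgagcgattattgcttc
its reverse complement: gaagcaataatcgctcacctgtgga
Both are 25 bases long, 5′ to 3′, the first as given in the labels and the second computed from it. The position of the target in the genome was not analysed here.

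Library totals ran from 12574486 to 37906530 counts, so 1 CPM stood for 12.6 to 37.9 reads. The table has no row for the identifier of gata4 or of gata6, so the knockdown could not be checked on its target's RNA. Levels are listed below in the order of replicates 1, 2 and 3. MYL7, which marks the sorted cells, was at 1000, 628 and 355 CPM in the wildtype libraries and at 493, 217 and 307 CPM in the morphants. Morphant replicate 2 stood apart from the other morphants. Its median absolute log2 difference was 0.306 to 0.353 from the wildtype libraries and 0.902 and 0.709 from morphant replicates 1 and 3. Because morphant replicate 2 also had to pass the rule, the number of genes meeting the rule and the edgeR calls of the set are also given without it. Family, neighbour and marker list results are given only with it.

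Among genes of vesicle release and neuronal membranes, SYT4, a synaptotagmin, stood out by its level in 1 morphant library. SYT4 had 3.14, 2.32 and 2.31 CPM in the wildtype libraries and 6.68, 7.68 and 20.9 CPM in the morphants. Morphant replicate 3 was far above the other morphants, and the morphant mean was 4.54 times the wildtype mean (11.8 ± 7.95 against 2.59 ± 0.473 CPM, SD, n = 3 each). PPFIA2, a liprin-alpha, was the most even across morphants apart from 1 gene without a symbol, with 1.05, 0.90 and 1.16 CPM in the wildtype libraries and 2.62, 2.72 and 3.04 CPM in the morphant libraries. Its fold of means was 2.7, among the smallest of the set. In lingo3a, the wildtype libraries held 0.457, 0.284 and 0 CPM and the morphant libraries 1.19, 1.58 and 2.38 CPM. The zero in wildtype replicate 3 is a count of 0, and a count of 0 allows up to about 3 counts, or 0.158 CPM, in that library (1-sided 95% limit). Its wildtype mean was 0.247 ± 0.231 CPM and its morphant mean 1.72 ± 0.607 CPM (SD, n = 3 each). Per transcript length, by the authors' RPKM (reads per length and library total), the morphant levels were 4.49 ± 2.86 RPKM for SYT4, 0.877 ± 0.308 for lingo3a and 0.356 ± 0.0576 for PPFIA2 (SD, n = 3). These are bulk samples, so more cells of a type and more RNA per cell cannot be told apart.

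Among genes of microtubules and the centrosome, SSX2IP and map9 had the largest folds of means after si:ch211-236g6.1. The microtubule-associated protein gene map9 had 0.719, 0.758 and 0.158 CPM in the wildtype libraries and 5.96, 1.58 and 4.11 CPM in the morphants. Its lowest value was in wildtype replicate 3, its highest in morphant replicate 1, and its morphant mean was 7.13 times the wildtype mean. For SSX2IP (ENSDARG00000061602), which encodes a centrosome and centriolar satellite protein, the wildtype libraries had 0.392, 0.616 and 0.421 CPM and the morphant libraries 5.73, 1.45 and 3.58 CPM, a fold of means of 7.53. Morphant replicate 1 had 3.95 times the level of morphant replicate 2, the widest morphant spread of the set. A second identifier with the symbol SSX2IP (ENSDARG00000039521) had 1.18, 0.758 and 2.58 CPM in wildtype and 3.18, 2.45 and 3.40 CPM in morphants, where the groups overlapped. Counts of such copies are uncertain, since reads shared between them may have been split. The microtubule gene map1sb was low in wildtype replicate 3, with 0.784, 0.758 and 0.263 CPM against 1.67, 3.56 and 3.69 CPM in the morphants. Morphant replicates 2 and 3 were alike for map1sb, and morphant replicate 1 was lower than both.

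NTHL1, a glycosylase that starts base excision repair of oxidised DNA bases, had 2.03, 1.28 and 1.63 CPM in wildtype and 9.54, 3.96 and 9.95 CPM in morphants. Per transcript length its morphant level, 5.17 ± 1.73 RPKM (SD, n = 3), was the highest of the set, and it did not differ from that of SYT4 beyond their spread. Morphant replicate 2 was the lowest of the 3 morphants and set the ratio of 1.95 that placed NTHL1 just inside the rule. CHST1, a sulfotransferase of keratan sulfate, had 0.85, 0.994 and 1.1 CPM in wildtype and 4.21, 2.37 and 4.95 CPM in morphants. The wildtype values lay close together and the morphant mean was 3.91 times the wildtype mean. PPP1R1C, an inhibitor of protein phosphatase 1, had 0.784, 1.09 and 0.421 CPM in wildtype and 2.78, 2.11 and 4.17 CPM in morphants. Its ratio of 1.94 was the smallest in the set.

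The cold shock domain gene CSDC2, which encodes an RNA-binding protein, had nearly the same level in all wildtype libraries, 1.05, 1.09 and 1.05 CPM, and 2.94, 2.59 and 4.05 CPM in the morphants. CRYGS (ENSDARG00000041171), a gamma-crystallin of the lens, had 0.719, 0.568 and 1.05 CPM in wildtype and 2.47, 4.38 and 4.47 CPM in morphants. In CRYGS it was morphant replicate 1 that was the lowest morphant library. Its symbol is shared with another identifier (ENSDARG00000042992), which had 0.0473 CPM in wildtype replicate 2 and 0 CPM in every other library. The count of CRYGS is uncertain as far as reads are shared with other gamma-crystallin genes, which was not tested. KCTD4, a protein with a BTB domain, had 0.457, 0.331 and 0.579 CPM in wildtype and 1.27, 1.79 and 1.25 CPM in morphants, and was the 1 gene of the set with its highest value in morphant replicate 2. The C2 domain gene c2cd4a had the lowest morphant value of the set, 1.03 CPM in morphant replicate 2, with 0.196, 0.426 and 0.526 CPM in wildtype and 1.35, 1.03 and 2.92 CPM in morphants.

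The widest gap belonged to si:ch211-236g6.1, which has a clone-based name, at 0.392, 0.426 and 0.316 CPM in wildtype and 5.81, 1.53 and 2.38 CPM in morphants. Its lowest morphant value was 3.59 times its highest wildtype value, and its morphant mean 8.57 times the wildtype mean (3.24 ± 2.26 against 0.378 ± 0.0566 CPM, SD, n = 3 each). ENSDARG00000041134, without a symbol, had 0.588, 0.237 and 0.579 CPM in wildtype and 2.94, 1.87 and 2.56 CPM in morphants, a ratio of 3.18. These were the 2 genes with a ratio of 3 or more. ENSDARG00000090710 had 0.654, 0.521 and 0.263 CPM in wildtype and 1.35, 1.98 and 3.81 CPM in morphants, with its highest value in morphant replicate 3. ENSDARG00000079116 had 2.09, 2.60 and 1.63 CPM in wildtype and 5.33, 5.09 and 5.18 CPM in morphants. The morphant values of ENSDARG00000079116 differed by at most 1.05 times, the narrowest morphant spread of the set.

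**Figure D1:**
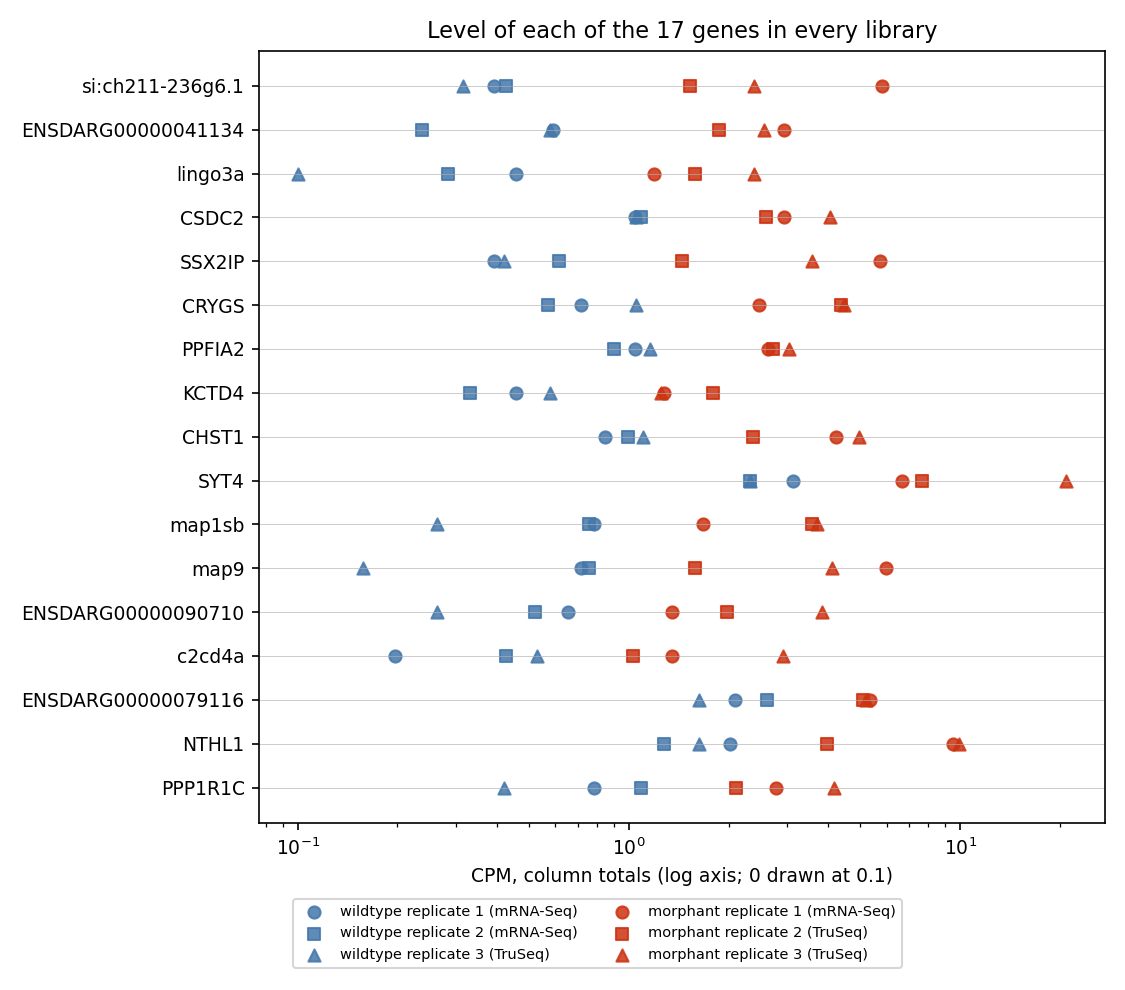
CPM of each of the 17 genes (log axis) in every library, with wildtype libraries in blue, morphant libraries in red, and the shape giving the replicate number. All morphant points lie to the right of all wildtype points by the rule's construction, and the widest gap, a ratio of 3.59, is that of si:ch211-236g6.1.

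The order of the morphant libraries was uneven across the set. Morphant replicate 3 was the highest for 11 of the 17 genes, morphant replicate 1 for 5 and morphant replicate 2 for 1, while morphant replicate 2 was the lowest for 10. Among the 14667 genes with at least 1 CPM in every morphant library, the highest value was in morphant replicate 3 for 26.1%, in replicate 1 for 46.1% and in replicate 2 for 27.8%, and morphant replicate 2 was the lowest for 55.1%. Summed over the 17 genes, the level lay between 13.5 and 16.3 CPM in the wildtype libraries and came to 63.9, 47.3 and 83.4 CPM in the morphants. Morphant replicate 2, which was near the wildtype libraries over all genes, had a higher summed level than each wildtype library here, as the rule requires of each gene. For the wildtype libraries the highest value was spread evenly, with 6 genes in replicate 1, 6 in replicate 2 and 5 in replicate 3.

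Counting error was wide for part of the ratios. The genes had 15 counts or more in each morphant library and 55 counts or fewer in each wildtype library. Exact 95% Poisson intervals of the lowest morphant and highest wildtype values, which cover counting error only, were apart for 11 of the genes. The rule chose the genes by these same values, so the number apart describes precision and adds no evidence. No share over all genes was computed. They overlapped for lingo3a, KCTD4, map1sb, map9, ENSDARG00000090710 and c2cd4a. The interval of lingo3a reached from 0.668 to 1.97 CPM in morphant replicate 1 and from 0.184 to 0.943 CPM in wildtype replicate 1, on counts of 15 and 7. The interval of SYT4 reached from 5.33 to 8.27 CPM in morphant replicate 1 and from 2.31 to 4.16 CPM in wildtype replicate 1, on counts of 84 and 48.

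**Figure D2:**
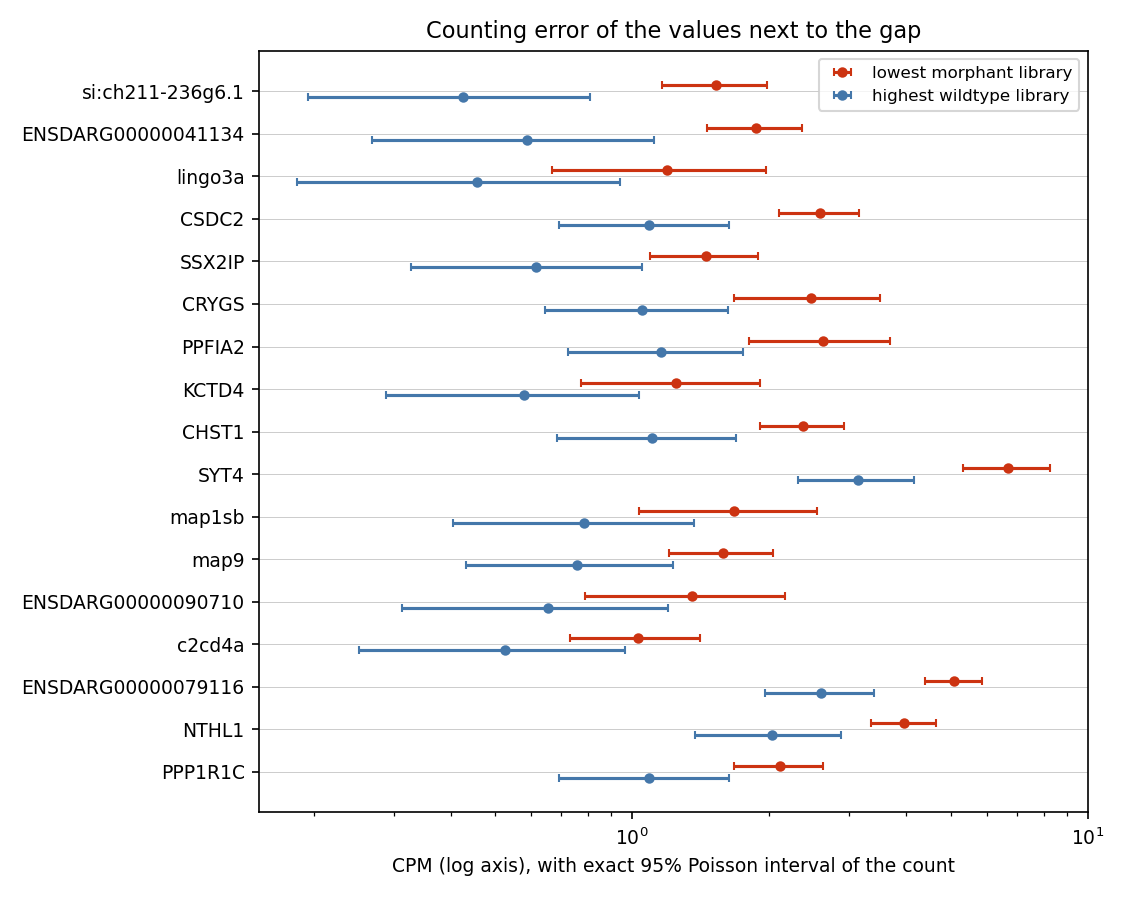
CPM (log axis) of the lowest morphant library (red) and the highest wildtype library (blue) of each gene, with the exact 95% Poisson interval of its count. The bars are apart for 11 genes and overlap for 6, around the values by which the rule chose the genes.

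The share of genes that met the rule was highest at low abundance. It was 0.485% (9 of 1856 genes) where the lowest morphant library had 1 to 2 CPM, 0.221% (6 of 2713) at 2 to 5 CPM and 0.0890% (2 of 2248) at 5 to 10 CPM. None of the 6701 genes at 10 to 100 CPM or of the 1149 genes above 100 CPM met it. SYT4 and ENSDARG00000079116 were the 2 genes in the bin from 5 to 10 CPM. Transcript lengths implied by the authors' RPKM ran from 0.460 to 4.64 times that of the median gene, with a median of 0.843 over the set, against 1.45 over the 14667 genes with 1 CPM or more in every morphant library. The mirror rule, 1.9 times lower in every morphant library, was met by 14 genes.

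**Figure D3:**
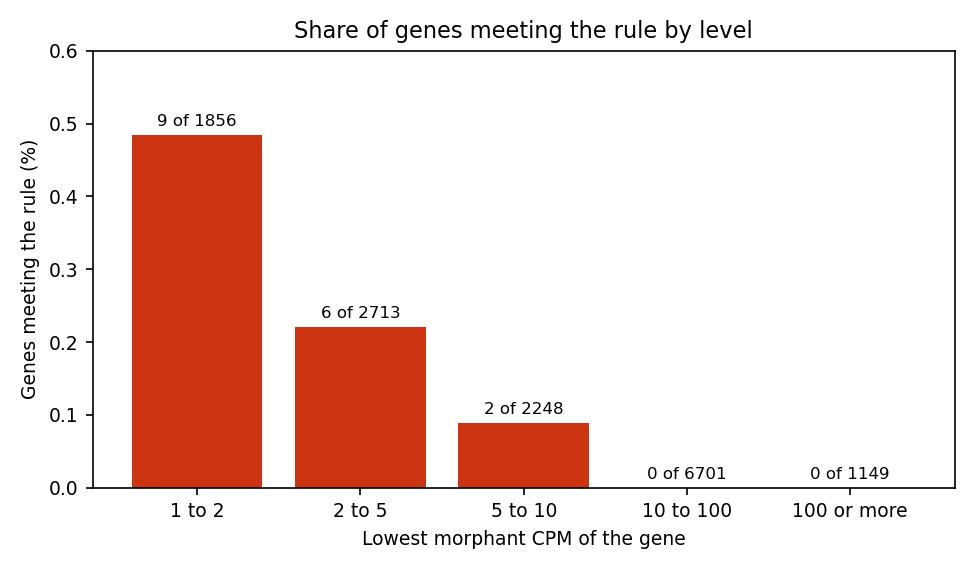
Share of genes that met the rule (percent, bars) by the lowest morphant CPM of the gene, with the number of genes above each bar. The share is 0.485% at 1 to 2 CPM and 0 above 10 CPM.

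Around the threshold the values ran on without a break. The nearest genes inside were PPP1R1C at 1.94, NTHL1 at 1.95, and ENSDARG00000079116 and c2cd4a, both at 1.96. The nearest outside with a symbol were foxg1b, a forkhead transcription factor of the forebrain, at 1.898, TTC5 and SLC35F1 at 1.88, mterf3, a regulator of mitochondrial transcription, at 1.87 and rgs17, a regulator of G protein signalling, at 1.85. The gene foxg1b had 1.05, 1.47 and 1.47 CPM in wildtype and 3.02, 2.80 and 7.87 CPM in morphants.

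Membership depended on how the libraries were scaled. With totals scaled by TMM (edgeR's trimmed mean of M values), 7 genes met the rule, of which 6 are among the 17, and 22 genes met the mirror rule. With DESeq2 size factors 10 genes met it, again 6 of the 17. Across these scalings, column totals and the library totals implied by the authors' RPKM, 5 genes met the rule each time: si:ch211-236g6.1, ENSDARG00000041134, SSX2IP, map9 and NTHL1. Under TMM the ratios of the 17 genes ran from 1.40 to 3.51, so each stayed higher in every morphant than in every wildtype library. The choice of genes fixed that order in advance. The TMM factors of the libraries ran from 0.822 to 1.29, too narrow a range to close the gap that the rule required. The order is therefore no measure of stability under TMM. Among the 18033 genes tested it was found for 7.74% under TMM and 11.6% under column totals.

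**Figure D4:**
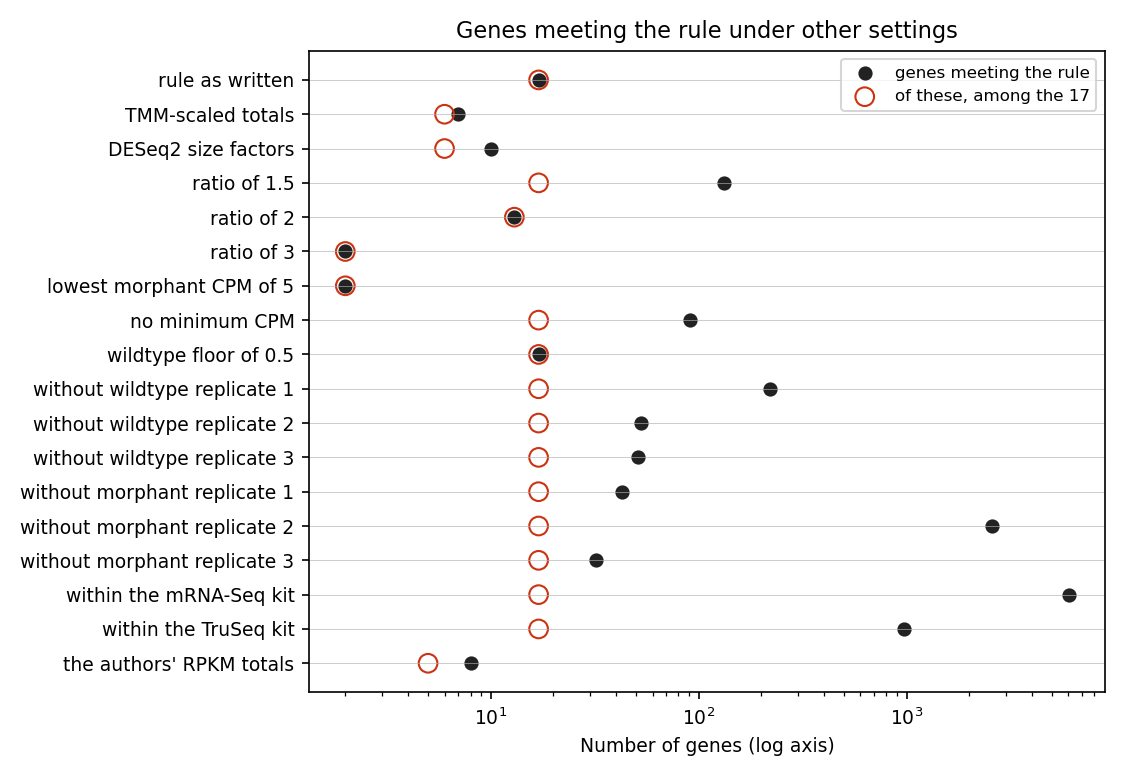
Number of genes that meet the rule (log axis) under each setting, with filled points for all genes and open circles for those among the 17. TMM scaling leaves 7 genes and DESeq2 size factors 10, while the rule without morphant replicate 2 is met by 2565.

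In the edgeR fit with terms for kit and group, run over the whole table, the fitted log2 difference between morphant and wildtype ran from 0.99 to 3.03 in the set, with a median of 1.77 against 0.07 over all genes tested. With column totals alone, the median over all genes tested shifted to 0.46 and that of the set to 2.19. The largest differences were 3.03 (SE 0.63) for map9, 2.87 (SE 0.55) for si:ch211-236g6.1, 2.84 (SE 1.15) for lingo3a and 2.63 (SE 0.59) for SSX2IP. With the kit term, the fit without wildtype replicate 3 sets only morphant replicate 1 against wildtype replicates 1 and 2. The fit without morphant replicate 1 sets only wildtype replicate 3 against morphant replicates 2 and 3. The value of lingo3a was 1.22 in the former fit and 8.27 in the latter, where its wildtype count was 0. In the fit without wildtype replicate 3, map1sb had 0.63 against 1.96 with all libraries. There ENSDARG00000090710 had 0.73 against 1.85, and SYT4 0.82 against 1.55. Other genes were higher in that fit, such as si:ch211-236g6.1 at 3.32 against 2.87. With all libraries, the smallest difference was 0.99 (SE 0.47) for PPFIA2. All 17 genes passed the filter on low counts, which the rule's minimum of 1 CPM in every morphant library fixed in advance. Of the 17, 0 had an edgeR adjusted p under 0.05, as for 0% of all genes tested. At an unadjusted edgeR p under 0.05 there were 14 of 17, against 7.62% of all genes tested. DESeq2 called 4 of the 15 to which it gave an adjusted p (si:ch211-236g6.1, SSX2IP, map9 and NTHL1), against 0.739% of genes, and limma-voom called 0, as of 0% of genes. By the adjusted p of the authors' deposited table, 4 of the 17 were under 0.05 (si:ch211-236g6.1, SSX2IP, SYT4 and map9). The share called higher was 2.3% of all 27456 genes, which include low genes that the other fits filtered out. The rule used this contrast, so these counts describe the genes and add no evidence.

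Without morphant replicate 2, edgeR called the same 4 genes as DESeq2, against 8.19% of all genes tested. Their log2 differences in that fit were 2.96 for si:ch211-236g6.1, 2.81 for SSX2IP, 3.08 for map9 and 2.08 for NTHL1. The rule itself was met by 2565 genes without morphant replicate 2, and all 17 are among them by construction.

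The rule did not use the kit labels, but it used the same CPM values, and both kits were in both groups. A large kit difference makes the required gap harder to meet, so the choice of genes shapes the kit counts below. They are no independent test of the kit. In the same edgeR fit, 0 of the 17 genes differed between TruSeq and mRNA-Seq libraries at an adjusted p under 0.05, as for 0% of all genes tested, and 0 at an unadjusted p under 0.05, against 5.27%. DESeq2 called 0 of the 17 (0.499% of all genes tested) and limma-voom 0 (0%). Kit differences on the log2 scale ran from -1.26 (SE 0.62) for map9 to 1.05 (SE 0.49) for CRYGS, with a median of 0.25, and were positive for 10 genes and negative for 7. A p that misses the threshold does not show that the kits gave equal levels. Within each kit the morphant to wildtype fold of the CPM, whose direction the rule fixes, was 2.17 to 14.2 in the mRNA-Seq kit (1 morphant library) and 2.49 to 18.04 in the TruSeq kit (1 wildtype library, lingo3a left out because its count was 0). A kit by group term, chosen after seeing the data, was called for 0 of the 17 in edgeR (0% of all genes). At an unadjusted p under 0.05 there was 1, lingo3a, whose count was 0 in the only wildtype library of the TruSeq kit. The share of all genes at that unadjusted threshold was not computed, so the 1 gene is no result about the set.

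Relatives of the named genes were drawn up by family after the 17 were known, and the genes named here were picked after their values were seen. Over all genes tested the median log2 difference was 0.07, and the share with a positive value is not given here. Of 14 other synaptotagmins tested, 13 had a positive log2 difference (median 1.29), with SYT11 (ENSDARG00000057913) at 1.11 (SE 0.45) and 1 identifier of SYT9 (ENSDARG00000029239) at 3.57 (SE 0.89). That SYT9 identifier had 0.0654, 0.0473 and 0.263 CPM in wildtype and 2.54, 0.660 and 3.34 CPM in morphants, and it missed the rule on its level in morphant replicate 2. For the other LINGO genes all 4 values were positive (median 1.23), and both other liprin-alpha genes were positive (median 1.34). In lingo4b the wildtype libraries had 1.18, 0.521 and 0.316 CPM and the morphants 10.02, 1.40 and 5.66 CPM, a log2 difference of 3.10 (SE 0.68). Among 15 other microtubule-associated protein genes 11 were positive (median 0.82), MAP1B at 1.71 (SE 0.61) and maptb, a tau gene, at 1.45 (SE 0.56) among them. Each morphant library exceeded each wildtype library in 4 of the 14 synaptotagmins, 1 of the 4 LINGO and 0 of the 2 liprin-alpha genes. That order held for 2 of the 15 microtubule-associated protein genes, against 11.6% of all genes tested. The opposite order held for 0 genes of these families, against 3.3%.

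Among families of the remaining genes both signs were found. Of 15 other base excision repair genes 14 were positive (median 0.53), while 7 of 10 other carbohydrate sulfotransferases were negative (median -0.28), CHST15 at -1.99 (SE 0.60). KCTD genes split into 7 positive and 9 negative, cold shock domain genes into 3 and 2, and centriolar satellite genes into 5 and 1. Both other gamma-crystallins tested were negative. In the 10 families together edgeR called no relative at an adjusted p under 0.05 and limma-voom called none. Over all genes tested, 0% were called higher by either tool. At an unadjusted edgeR p under 0.05 the higher relatives numbered 3 synaptotagmins, 3 microtubule-associated protein genes, 3 KCTD genes, 1 liprin-alpha gene and 1 LINGO gene (7.62% of all genes tested). The lower ones were 1 sulfotransferase, 1 KCTD gene and 1 gamma-crystallin (4.92% of all genes). DESeq2 called 1 synaptotagmin and 1 LINGO gene higher and 1 sulfotransferase lower (0.739% of all genes were higher and 1.02% lower).

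Next-door genes were looked up by name in the RefSeq annotation of GRCz12tu, which matched 11 of the 17. Of their 22 protein-coding neighbours 12 were in the table, and 7 passed the filter, with 4 positive and a median log2 difference of 0.36. PPFIA2 overlaps acss3, whose log2 difference was -0.47 (SE 0.51), and KCTD4 overlaps gtf2f2b. Whether counting used strand is not stated in the labels or file headers, and overlapping genes are uncertain for that reason. Each morphant library exceeded each wildtype library in 3 of the 12 neighbours in the table. They were vgll3 beside KCTD4, zgc:101566 beside CHST1 and gucy1a1 beside map9. Of these, gucy1a1 did not pass the filter, with 0.290 CPM in morphant replicate 2 against 0.196 CPM in wildtype replicate 1. Among the 7 neighbours that passed the filter, the order held for vgll3 and zgc:101566 only, against 11.6% of all genes tested.

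Levels of marker lists are set beside those of the 17 genes, since markers of other cell types also differed between the libraries. Of 50 neural markers tested 47 had a positive log2 difference (median 1.14), and in 17 of the 50 each morphant library exceeded each wildtype library, against 11.6% of all genes tested. The opposite order, each morphant below each wildtype library, held for 1 of the 50, against 3.3% of all genes tested. The summed neural level was 1442, 983 and 1086 CPM in wildtype and 3319, 1320 and 2631 CPM in morphants, so morphant replicate 2 lay among the wildtype libraries. ELAVL3, an RNA-binding protein of neurons, had 127, 42.4 and 45.03 CPM in wildtype and 203, 93.7 and 109 CPM in morphants. The marker olig1 was at 0 counts in 5 of 6 libraries. Of 36 axon guidance genes tested 34 had a positive log2 difference (median 0.95). For 20 ear, lens and placode markers, a list that bears on CRYGS, the sum came to 170, 159 and 177 CPM in wildtype and 671, 171 and 563 CPM in morphants.

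Skeletal muscle and somite markers summed to 1557, 1196 and 1746 CPM in wildtype and 9403, 998 and 9779 CPM in morphants, and all 38 tested had positive fitted differences. Leukocyte markers went the other way in morphant replicates 1 and 3, with 14486, 18746 and 21833 CPM in wildtype and 3230, 21506 and 6486 CPM in morphants. Cardiomyocyte contractile genes summed to 8852, 4693 and 3974 CPM in wildtype and 3342, 2668 and 3909 CPM in morphants. Each morphant library exceeded each wildtype library in 3 of 36 axon guidance, 3 of 20 placode and 2 of 38 skeletal muscle genes. That order held for 0 of 39 leukocyte and 0 of 29 cardiomyocyte genes, against 11.6% of all genes tested. The opposite order held for 4 of 39 leukocyte and 13 of 29 cardiomyocyte genes, against 3.3% of all genes tested. It held for 0 axon guidance, placode or skeletal muscle genes. edgeR called 0 genes of these 6 lists at an adjusted p under 0.05, and limma-voom 0. Either tool called 0% of all genes tested higher. At an unadjusted edgeR p under 0.05, higher and lower genes numbered 20 and 1 of 50 neural, 6 and 0 of 36 axon guidance and 8 and 0 of 20 placode genes, against 7.62% higher and 4.92% lower of all genes tested. They numbered 25 and 0 of 38 skeletal muscle, 0 and 13 of 39 leukocyte and 1 and 14 of 29 cardiomyocyte genes. DESeq2 called 1 placode and 1 skeletal muscle gene higher, and 2 leukocyte and 3 cardiomyocyte genes lower (0.739% of all genes were higher and 1.02% lower). Markers at 0 counts in at least 1 library included DES, nebl, GJA5, LMOD2 and nppal of the cardiomyocyte list, mespaa, mespab, mespba, ripply2, CHRNB1 and TNNT1 of the skeletal muscle list, CRYAA and crygm2d1 of the placode list, and cd74a, MPEG1 and il34 of the leukocyte list. The part of these cell types in the levels of the 17 genes was not tested.

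**Figure D5:**
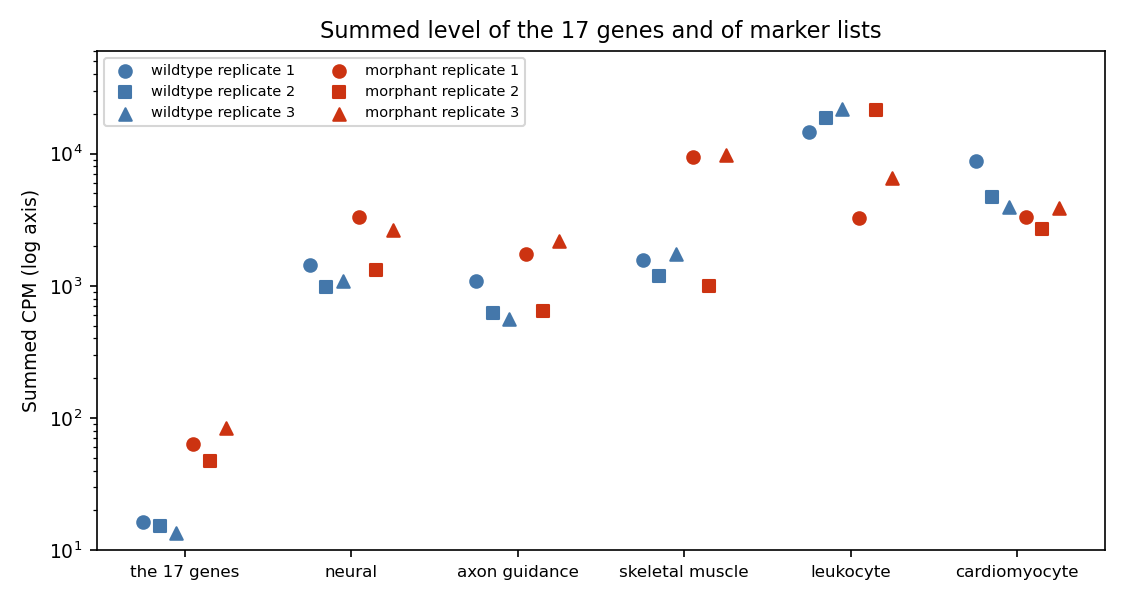
Summed CPM (log axis) of the 17 genes and of 5 marker lists in each library, wildtype in blue and morphant in red. The 17 genes sum to 63.9, 47.3 and 83.4 CPM in morphants and to 16.3 CPM or less in wildtype. Morphant replicate 2 lies within the wildtype range for the neural, axon guidance and leukocyte lists and below it for skeletal muscle. For the cardiomyocyte list all morphant libraries lie below the wildtype range.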

How the data were processed

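RNA of sorted cells was sequenced in 3 wildtype and 3 Gata4 morphant libraries, grouped by the labels' experimental group. Per the file headers, the authors deposited a raw, unnormalized count for each Ensembl gene and library. Within a gene, the deposited RPKM follows the count plus 1, and the library totals it implies differ from the column totals. The fold (ratio) and the p-values, adjusted p-values and base mean signal are the authors' deposited results, of which the adjusted p and the direction of the base means were used. The authors' deposited average counts per group, handled as estimated counts because they need not be whole, appear to have swapped names and were not used. Per the submitters' processing notes, BWA, CASAVA 1.7.0, the build Zv9 and DESeq are named without their roles. The annotation release, the counting tool and the strand setting were not given in the sources used here. The actb2 count of morphant replicate 2 is deposited as 1030000, in rounded form.

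The rule was applied to CPM from column totals. Counts were fitted over all genes with edgeR 4.0.16 in R 4.3.3 (TMM, filterByExpr, terms for kit and group, two-sided quasi-likelihood F test, Benjamini-Hochberg adjustment, threshold 0.05), which left 18033 genes and 3 residual degrees of freedom. TMM factors ran from 0.822 to 1.29 and the biological coefficient of variation was 0.470. Alternatives used DESeq2 1.42.0, limma-voom (limma 3.58.1), other scalings, filters and libraries. The members, lists and tests were chosen with earlier results of these data known. Named are the genes with a symbol by margin, level and nearness to the threshold, and 2 without a symbol; ENSDARG00000079116, the relatives and the neighbours were named after their values were seen. Symbols came from a name table that matched 19189 of 27456 identifiers (69.9%) and are written as there. The labels do not state separate clutches, and p-values thus reflect the spread of these libraries, in part perhaps technical. Replicates differed beyond sampling noise (chi-square per gene 55.9 to 401).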

Additional observations from a re-analysis of the deposited data

How the results depend on the processing

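The count of 17 genes depended on scaling, thresholds and libraries. TMM scaling gave 7 and DESeq2 size factors 10. The library totals implied by the authors' RPKM, an alternative chosen after seeing the data, gave 8, of which 5 are among the 17. A ratio of 1.5 gave 132 genes and a ratio of 3 gave 2, as did a lowest morphant CPM of 5, while no minimum gave 91. A ratio of 2 (13 genes) and a wildtype floor of 0.5 (17) stayed within 1.5 times the count. Leaving out one library gave from 32 to 2565 genes: 221, 53 and 51 without wildtype replicates 1, 2 and 3, and 43, 2565 and 32 without morphant replicates 1, 2 and 3. Within the mRNA-Seq kit 6008 genes met the rule and within the TruSeq kit 974. For settings with fewer libraries, fewer conditions had to be met, and for the others the cause was not tested.

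In the morphant comparison DESeq2 called 4 of the set, against 0.739% of genes. Leaving out wildtype replicate 1 or 2 or morphant replicate 2 or 3, edgeR called 0 to 4, with the 4 seen without morphant replicate 2, against 8.19% of all genes tested. Fits within a kit leave 1 library in a group. Through the kit term, the group difference also rests on 1 library of a group without wildtype replicate 3 or without morphant replicate 1. The calls of all these fits are not counted here. Within the mRNA-Seq kit, which has 1 morphant library, log2 differences ran from 0.60 for map1sb to 3.29 for si:ch211-236g6.1. Other tools, filters, scalings and the fit without the kit term called 0. The kit comparison called 0 under every alternative run, a count that the choice of genes also shapes. DESeq2, column totals alone and the fits without 1 library gave 136 alternative values. The fits run within a kit are left out, but those without wildtype replicate 3 and without morphant replicate 1 are included. Fitted log2 differences of the genes ran from 0.63 to 8.27 over these 136 values, of which 8 passed the threshold. Both ends of that range come from fits in which 1 library of a group carries the group difference: 0.63 for map1sb without wildtype replicate 3 and 8.27 for lingo3a without morphant replicate 1. All 136 values were positive, which the choice of genes by a gap between the groups fixes in advance, so their sign is no measure of stability. No paired analysis was possible because the labels number no replicates, and the numbers used here are names that mark no pairs. Low counts at the gap limit the precision of each ratio.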
